A study of Mus musculus with 19 samples.

Results

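The antioxidant programme of NRF2 was followed here through 10 genes: Nfe2l2, which encodes NRF2 itself, and 9 genes that NRF2 is known to control, Gclc, Gclm, Slc7a11, Gsr, Txnrd1, Srxn1, Prdx1, Nqo1 and Hmox1. They were taken by name from the 20408 genes of an RNA-Seq table of the suprarenal abdominal aorta (SRA), and all 10 were found there under 1 row each. The table held 19 mice in 4 groups. Among IKKβ+/+ mice, 5 had received Ang II and 5 saline, and among IKKβ-/- mice, 5 and 4. All mice were ApoE-/- males on a C57BL6 background, listed as 8 weeks of age, fed regular chow, and all carried SMA-CreERT2, a tamoxifen-activated Cre recombinase driven by the Acta2 promoter of smooth muscle cells. In the study's methods 8 weeks is the age at the first tamoxifen injection, so the mice were older when their aortas were taken. The IKKβ-/- mice carried in addition the Ikkβ Flox/Flox allele, and per the study's methods both genotypes received tamoxifen, so that IKKβ, the kinase that turns on canonical NF-κB signalling, was to be removed from vascular smooth muscle cells (VSMCs) and kept by the other cells of the wall. Ang II, a vasoactive peptide, was given under the skin by osmotic pump for 24 h at 500 to 1000 ng/min/kg per the labels and 1000 ng/min/kg per the study's methods, and the comparisons ask how the aorta answers it with and without IKKβ in VSMCs.

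NRF2 is a transcription factor that KEAP1, an adaptor of a CUL3 ubiquitin ligase, marks for destruction. Oxidants and electrophiles modify KEAP1, NRF2 then accumulates, pairs with a small MAF protein and binds antioxidant response elements in its targets. Much of its control is thus at the protein, so the mRNA of Nfe2l2 and the mRNA of its targets are separate readouts. The targets make and recycle glutathione, run the thioredoxin and peroxiredoxin cycle, reduce quinones and break down haem.

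Promoter sequences were available for 7 of the 10 genes in a RefSeq table of GRCm38.p6, in 9 windows of 300 bases, since Txnrd1 has 3 starts. No window was available for Gclc, Gsr and Hmox1. Each window runs from 250 bases before to 50 after a transcription start. The core of the antioxidant response element, TGACNNNGC or GCNNNGTCA on the other strand, was found in 5 of the 9 windows, those of Gclm, Nfe2l2, Prdx1, Srxn1 and the second start of Txnrd1, and in 12.4% of all 32851 promoter windows of the table. The AP-1 site TGANTCA, which reads the same on both strands and can overlap the antioxidant element, was found in 2 of the 9 windows, those of Prdx1 and Srxn1, and in 7.81% of all windows. A kappa B-type site, GGNNTTTCC or GGAAANNCC, was found in none of the 9 windows and in 5.82% of all windows. The windows of Nqo1, Slc7a11 and the other starts of Txnrd1 held none of these sites. All sites named here are matches of letters in a short window and were not tested as binding sites. The 4 windows below are shown because Srxn1 and Txnrd1 rose together with Ang II, the mRNA of Nfe2l2 fell with Ang II in IKKβ-/- mice, and Gclm holds the same core and passed the test in no comparison. Capitals mark the antioxidant core and the AP-1 sites.
Srxn1, chr2:152105274-152105573 (+ strand): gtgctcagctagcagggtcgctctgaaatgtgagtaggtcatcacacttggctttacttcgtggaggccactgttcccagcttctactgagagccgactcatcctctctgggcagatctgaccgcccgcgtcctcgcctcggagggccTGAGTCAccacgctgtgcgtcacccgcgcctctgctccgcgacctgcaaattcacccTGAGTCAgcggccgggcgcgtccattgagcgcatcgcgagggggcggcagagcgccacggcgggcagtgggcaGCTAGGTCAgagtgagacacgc
Txnrd1, chr10:82858956-82859255 (+ strand): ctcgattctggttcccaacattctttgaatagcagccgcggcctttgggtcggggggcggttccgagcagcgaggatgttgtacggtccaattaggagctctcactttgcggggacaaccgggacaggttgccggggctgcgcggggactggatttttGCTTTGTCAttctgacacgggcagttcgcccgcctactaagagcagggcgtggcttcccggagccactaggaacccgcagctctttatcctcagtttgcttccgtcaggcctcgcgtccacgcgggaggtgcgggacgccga
Nfe2l2, chr2:75704614-75704913 (- strand): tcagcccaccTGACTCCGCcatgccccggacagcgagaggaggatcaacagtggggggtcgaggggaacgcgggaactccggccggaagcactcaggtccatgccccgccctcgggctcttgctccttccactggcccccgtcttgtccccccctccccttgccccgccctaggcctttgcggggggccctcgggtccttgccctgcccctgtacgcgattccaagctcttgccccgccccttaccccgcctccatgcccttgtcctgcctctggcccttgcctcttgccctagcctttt
Gclm, chr3:122245307-122245606 (+ strand): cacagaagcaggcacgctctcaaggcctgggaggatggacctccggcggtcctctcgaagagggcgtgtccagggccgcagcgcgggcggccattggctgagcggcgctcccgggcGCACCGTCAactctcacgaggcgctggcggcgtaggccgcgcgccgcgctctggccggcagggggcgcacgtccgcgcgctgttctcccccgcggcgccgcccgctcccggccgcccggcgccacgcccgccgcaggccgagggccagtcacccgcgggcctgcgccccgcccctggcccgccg
In the Srxn1 window the AP-1 sites begin at positions -102 and -45 from the start and the antioxidant core, GCTAGGTCA, at position 29. The core of the Txnrd1 window, GCTTTGTCA, begins at position -92, that of Gclm, GCACCGTCA, at -134 and that of Nfe2l2, TGACTCCGC, at -240. In Prdx1, whose window is not printed, the core GCTGAGTCA contains the AP-1 site TGAGTCA.

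The values are DESeq2-normalized counts, that is, the reads of a gene in a mouse divided by the size factor of that mouse. The gene reads of a mouse summed to between 11382573 and 19906694. Differences are limma log2 fold changes of log2(normalized count + 1) with their standard error (SE), from 1 fit over the 14845 genes that reached 10 normalized counts in 4 mice or more. A gene passed when its Benjamini-Hochberg adjusted p was under 0.1 and it changed by more than 1.2-fold. Slc7a11 stayed below that minimum, so 9 of the 10 genes were tested. Ikbkb, the deleted gene, had 533 ± 78.9 normalized counts (SD, n = 9) in IKKβ-/- and 699.7 ± 66.8 (SD, n = 10) in IKKβ+/+ aortas (two-sided exact permutation p = 0.000173), and 8 of 9 IKKβ-/- mice lay below every IKKβ+/+ mouse. Smooth muscle markers summed to between 304360 and 633459 normalized counts in every mouse, while of 5 adrenal cortex markers 1 was in the table, at 4 to 94. One Ang II-treated IKKβ+/+ mouse, X2356, stood apart with 7055 normalized counts of nerve markers, against at most 1715 in the other 18 mice. The labels name no batch, and as each group has its own run of numbers, a batch and a group cannot be told apart. In whole tissue, fewer cells of a type and less RNA per cell cannot be told apart either.

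Per kilobase of exon, Prdx1, a peroxiredoxin that reduces hydrogen peroxide, was the most abundant of the 10 genes, at 993 ± 95.2 normalized counts per kb (SD, n = 19). Nfe2l2 followed at 371 ± 75.7, Gsr at 270 ± 75.0 and Srxn1 at 242 ± 59.7. Nqo1 at 188 ± 46.9, Txnrd1 at 140 ± 34.0 and Gclc at 135 ± 19.6 came next, before Gclm at 94.9 ± 8.98, Hmox1 at 84.9 ± 30.1 and Slc7a11 at 0.417 ± 0.365 on the same scale. Prdx1 lay above Nfe2l2, and Hmox1 above Slc7a11, in every mouse, whereas every other pair of neighbours in this order had overlapping ranges over the mice. The transcripts of 9 genes were thus present at 47 reads or more in every mouse, with the exception of Slc7a11, the cystine importer, which had 0 to 21. The plot of all 10 genes by mouse shows these levels before scaling by length.

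**Figure D1:**
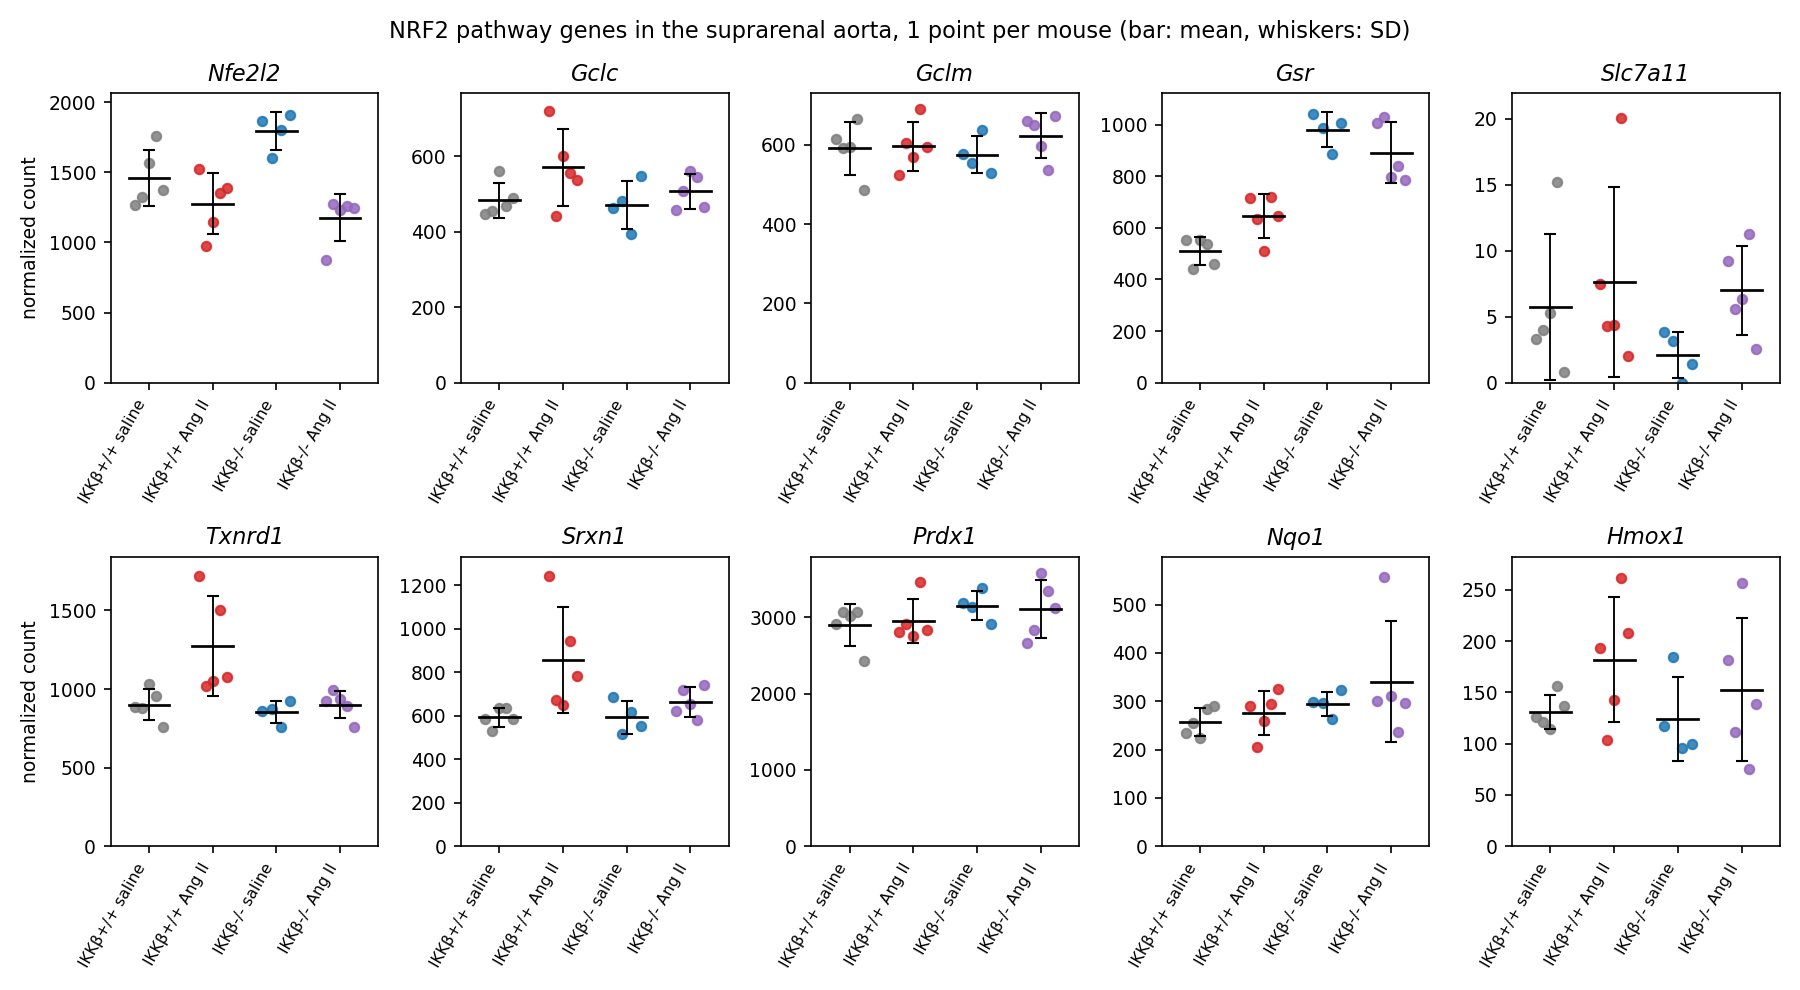
Normalized counts (vertical axes, from 0) of the 10 genes in each of the 19 mice, by genotype and infusion, with the mean as a bar and the SD as whiskers. Gsr lies at 785 to 1041 in IKKβ-/- mice and at 441 to 721 in IKKβ+/+ mice, and Srxn1 reaches 648 to 1244 in Ang II-treated IKKβ+/+ mice against 531 to 636 with saline.

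The first comparison asks which of these genes answer Ang II in aortas with IKKβ. Of the 9 genes tested, 3 of the thioredoxin and glutathione reductase system rose after 24 h, and none fell: Srxn1, which reactivates over-oxidized peroxiredoxins, Txnrd1, the cytosolic thioredoxin reductase, and Gsr, which recycles glutathione. Their rises were of 26.2% for Gsr, 38.6% for Txnrd1 and 40.5% for Srxn1. Of all genes tested, 4.33% rose past the threshold. The median log2 fold change of the 9 genes was 0.23 and that of all genes 0.01.

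Srxn1 (ENSMUSG00000032802.8, chromosome 2 of GRCm38, 152105516 to 152111376) had 1244, 674, 648, 943 and 784 normalized counts in the Ang II-treated IKKβ+/+ mice X2350, X2352, X2356, X2358 and X2359, and 584, 531, 636, 636 and 583 in the saline-infused mice X2370, X2372, X2373, X2376 and X2378. Values of these mice are given in this order throughout. The lowest value with Ang II exceeded the highest with saline, as happened for 3.95% of all genes tested, and X2350 was far above the others. The log2 fold change was 0.49 (SE 0.14, limma adjusted p = 0.0552).

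Txnrd1 (ENSMUSG00000020250.10, chromosome 10 of GRCm38, 82833951 to 82897712) had 1721, 1021, 1049, 1502 and 1074 normalized counts with Ang II and 884, 877, 1029, 957 and 760 with saline. The same mice, X2350 and X2358, were highest for both genes, and 4 of the 5 treated mice exceeded all 5 saline values. The log2 fold change of Txnrd1 was 0.47 (SE 0.13, limma adjusted p = 0.0498).

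Gsr (ENSMUSG00000031584.16, chromosome 8 of GRCm38, 33652523 to 33698163) had 715, 633, 509, 721 and 644 normalized counts with Ang II and 554, 441, 554, 538 and 458 with saline. Again 4 of 5 treated mice exceeded all 5 saline values, while the treated mouse X2356, at 509, lay within the saline range. The log2 fold change was 0.34 (SE 0.11, limma adjusted p = 0.0902), the least firm of the 3 calls.

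The 3 calls rested on few mice. Without X2350, X2358 or the saline-infused mouse X2378 none of the 3 genes passed, and without the saline-infused mouse X2372 Txnrd1 alone did (limma adjusted p at most 0.153 for Txnrd1, 0.157 for Srxn1 and 0.231 for Gsr over the mice left out), whereas all 3 passed without X2356. Gsr missed the threshold without any one of 12 of the 19 mice (log2 fold change 0.29 to 0.42), with TMM scaling (adjusted p = 0.115) and with no filter on low values (adjusted p = 0.119), in a range of 0.036 to 0.119 over its 8 alternatives. Summed smooth muscle markers moved with the same groups, at 458946 to 633459 normalized counts with Ang II against 331003 to 438667 with saline. Of these 6 markers 2 passed the threshold. Sums of 6 mitochondrial mRNAs were at 1412748 to 1853665 against 739149 to 1155226, with 0 of 6 past it. All 6 had higher values with Ang II (median log2 fold change 0.86), and 0 of 6 were at an unadjusted p under 0.05 (limma). That fit takes the spread of a gene from all 4 groups, and these sums ran from 980322 to 7525043 in IKKβ-/- mice. Striated muscle markers were at 204 to 484 against 47.0 to 184 (1 of 4 past the threshold). Endothelial and adventitial fibroblast markers had lower values, at medians of -0.69 and -0.56 on the log2 scale, with 1 of 6 past the threshold in each list. Among the Ang II-treated mice, X2350 and X2358 had the highest smooth muscle sums, 607512 and 633459, and the lowest endothelial sums, 13045 and 11277. Their adventitial fibroblast sums (77541 and 86780) and macrophage marker sums (3598 and 4047) were also the lowest of that group. The part of these markers in the rises was not tested.

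The other genes did not pass in IKKβ+/+ aortas. Nfe2l2 was at 976 to 1523 normalized counts with Ang II and 1268 to 1758 with saline, a log2 difference of -0.20 (SE 0.13, limma adjusted p = 0.401). Of the subunits of glutamate-cysteine ligase, the first enzyme of glutathione synthesis, the catalytic Gclc stood at a log2 difference of 0.23 (SE 0.12, limma adjusted p = 0.305) and the modifier Gclm at 0.01 (SE 0.10, limma adjusted p = 0.958). The intervals of Gclm and Prdx1 were the narrowest, -0.20 to 0.22 and -0.18 to 0.23 on the log2 scale. Hmox1, the inducible haem oxygenase, had the widest, -0.18 to 0.995, and its treated mice ranged from 104 to 262 normalized counts and its saline mice from 115 to 157. Nqo1, a quinone reductase often used as the readout of NRF2, was at 205 to 326 and 225 to 289.

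**Figure D2:**
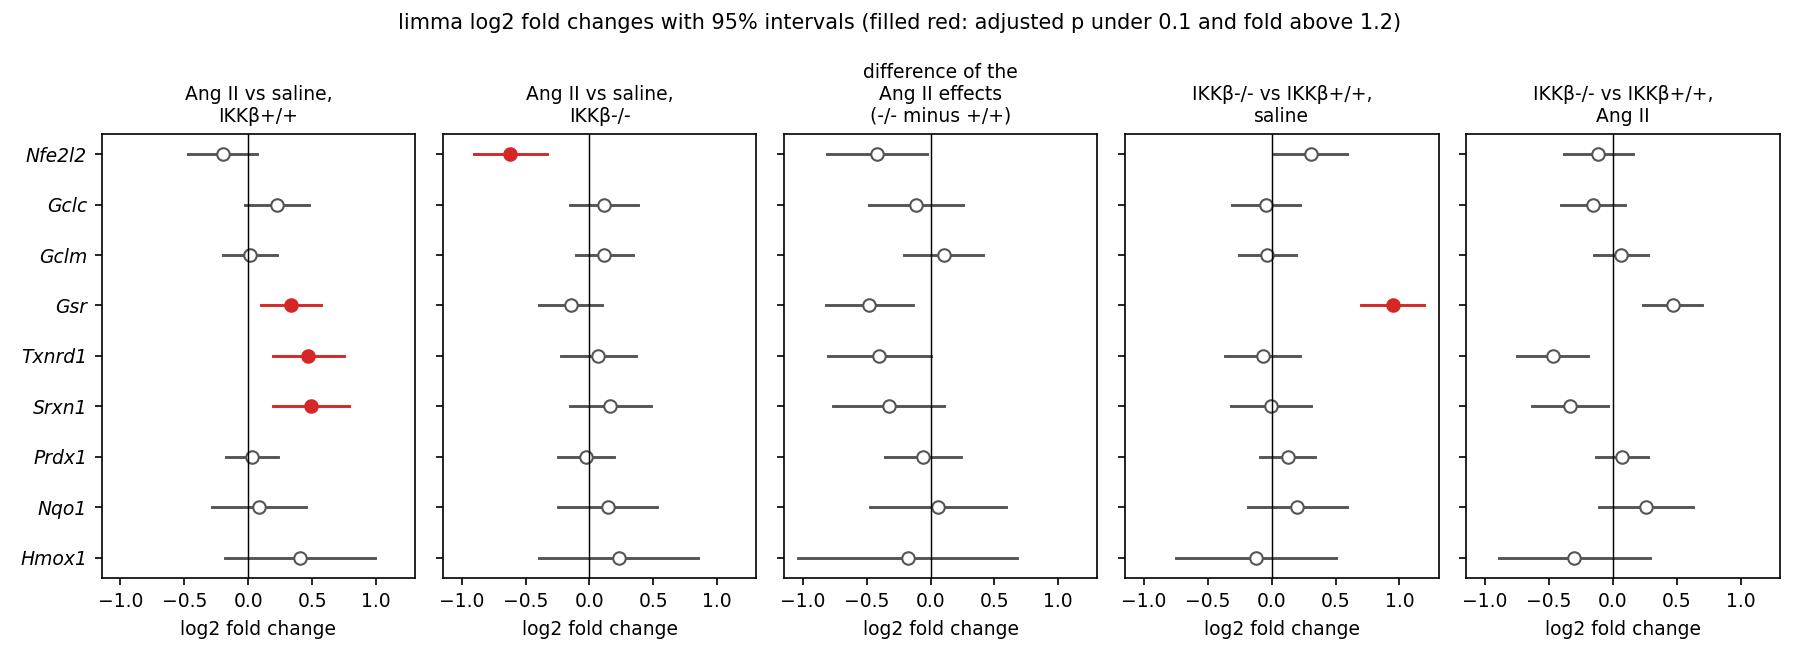
Log2 fold changes (horizontal axes) of the 9 genes tested in the 5 comparisons, with 95% intervals from limma; filled red marks genes past the threshold. Srxn1, Txnrd1 and Gsr are red for Ang II in IKKβ+/+ mice, Nfe2l2 for Ang II in IKKβ-/- mice, Gsr for genotype with saline, and no gene for the difference of the effects or for genotype with Ang II.

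With the same infusion in IKKβ-/- aortas Nfe2l2 itself fell, and none of its 8 tested targets passed. It is 1 of 9 genes, where 2.69% of all genes tested fell past the threshold. Nfe2l2 (ENSMUSG00000015839.6, chromosome 2 of GRCm38, 75675513 to 75704641) had 874, 1272, 1228, 1261 and 1245 normalized counts in the Ang II-treated IKKβ-/- mice X2380, X2383, X2384, X2385 and X2386, and 1866, 1600, 1803 and 1906 in the saline-infused X2401, X2403, X2406 and X2409. Every treated mouse lay below every saline-infused one, as 2.88% of all genes tested did, and X2380 was the lowest of all 19 mice. The log2 fold change was -0.62 (SE 0.14, limma adjusted p = 0.0189), a fold of 0.651 relative to saline.

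The call held whichever single mouse was left out (log2 fold change -0.67 to -0.52, limma adjusted p 0.0155 to 0.0634). White adipocyte markers rose between the same groups, with 5 of the 5 tested past the threshold and sums of 2369.985 to 24731 normalized counts with Ang II against 1030 to 4153 with saline. With a white adipocyte marker score as a covariate, an alternative chosen after seeing the data, the log2 fold change was -0.56 but no longer passed (limma adjusted p = 0.396, 0.00182 to 0.396 over its 8 alternatives). In that fit 15 of all genes tested passed, against 785 without the covariate. Without the covariate, 1 of 6 endothelial markers (log2 fold change 1.79) and 1 of 8 macrophage markers were also higher past the threshold. The median log2 fold changes of these lists were -0.30 and 0.15. The part of endothelial and macrophage markers in the fall of Nfe2l2 was not tested.

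**Figure D3:**
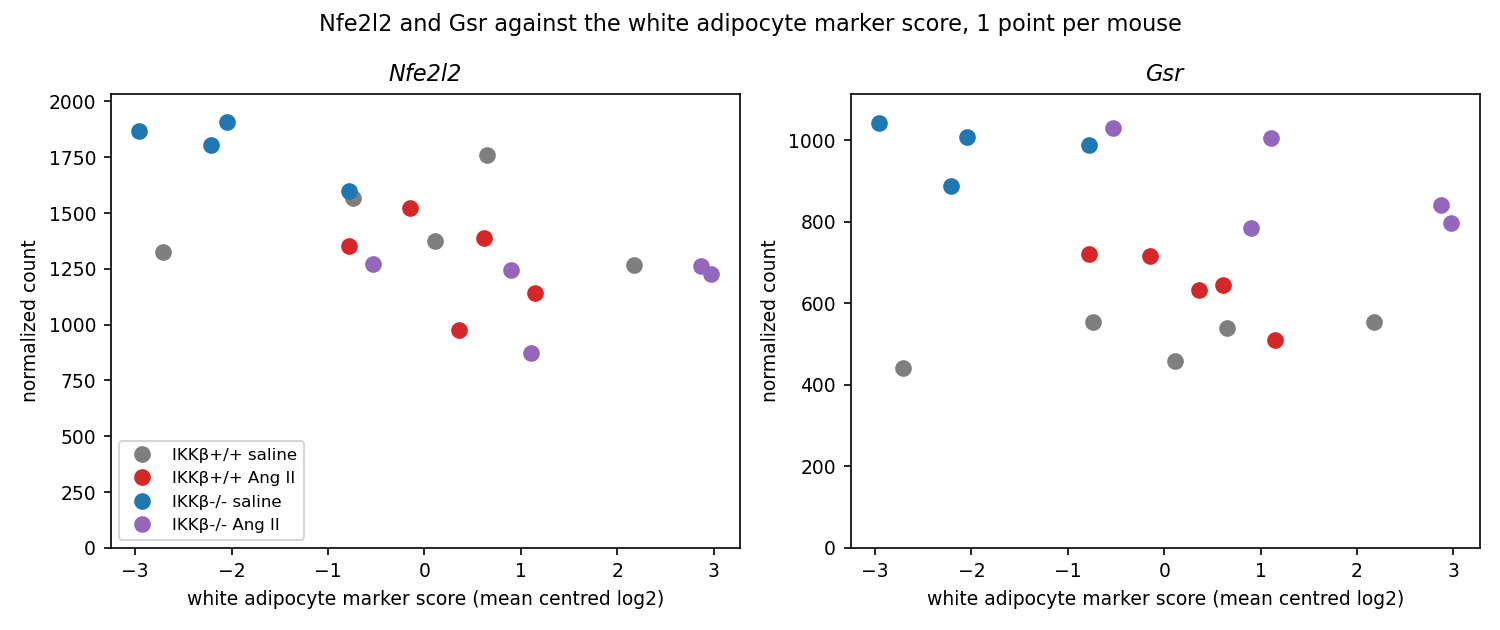
Normalized counts (vertical axes) of Nfe2l2 and Gsr against the white adipocyte marker score (horizontal axes, mean over the markers of log2 values centred on each gene), 1 point per mouse, coloured by group. The 4 saline-infused IKKβ-/- mice have scores of -2.96 to -0.79 and the Ang II-treated ones -0.54 to 2.98, and Gsr is higher in IKKβ-/- mice at low and at high scores.

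The targets that rose in IKKβ+/+ aortas did not pass in IKKβ-/- aortas. Srxn1 was at 580 to 743 normalized counts with Ang II and 514 to 688 with saline (log2 difference 0.16, 95% interval -0.15 to 0.48), and Txnrd1 at 757 to 992 and 760 to 925 (0.07, -0.22 to 0.37). Gsr was at 785 to 1029 with Ang II and 886 to 1041 with saline (-0.14, -0.39 to 0.10).

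Whether Ang II acted differently in the genotypes was tested as the difference of the effects, IKKβ-/- minus IKKβ+/+. None of the 9 genes passed with limma, edgeR or DESeq2. Of all genes tested, limma passed 0%, edgeR 3 genes and DESeq2 279 genes. At an unadjusted p under 0.05 there were 2 of the 9 genes with limma and 3 with each of edgeR and DESeq2. Of all genes tested, 1654 (11.1%) were at that p with limma, 1689 with edgeR and 1853 with DESeq2. The largest differences were those of Gsr at -0.48 (SE 0.16, limma adjusted p = 0.308), Nfe2l2 at -0.42 (SE 0.19, limma adjusted p = 0.421) and Txnrd1 at -0.40 (SE 0.19, limma adjusted p = 0.452). The 95% intervals of the differences ran from -0.82 to -0.14 for Gsr, from -0.81 to -0.03 for Nfe2l2 and from -0.81 to 0.01 for Txnrd1. For Srxn1, at -0.33, it ran from -0.76 to 0.11. A rise in one genotype and not in the other is therefore described here for each genotype and not called a difference between them.

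Without Ang II, the genotypes differed in Gsr. It had 1041, 988, 886 and 1007 normalized counts in the 4 saline-infused IKKβ-/- mice, against 441 to 554 in the 5 saline-infused IKKβ+/+ mice. All 4 IKKβ-/- values lay far above all 5 IKKβ+/+ values, as happened in this direction for 4.68% of all genes tested. The level was 1.93-fold higher, a log2 difference of 0.95 (SE 0.12, limma adjusted p = 0.00175), and Gsr ranked first by p among the 14845 genes. It is 1 of 9 genes tested, where 5.47% of all genes passed, 3.4% with a higher level in IKKβ-/- mice. The call held in all 8 alternatives and whichever single mouse was left out (log2 difference 0.899 to 0.996).

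With Ang II, Gsr was again higher in every IKKβ-/- mouse, at 1005, 1029, 796, 841 and 785 normalized counts against 715, 633, 509, 721 and 644. The log2 difference was 0.47 (SE 0.11), and 0.653% of all genes had groups that did not overlap in this direction. It did not pass with limma (adjusted p = 0.153) but did with DESeq2 (adjusted p = 0.0153) and with limma without X2356 (adjusted p = 0.0844) or without X2380 (adjusted p = 0.0976). Leaving out any other of the 19 mice did not turn the limma call. Over these fits 0 to 553 of all genes passed, against 19 with every mouse kept.

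Gsr lies on chromosome 8, as Ikbkb does, 10.9 Mb from it, while Hmox1 and Nqo1 are 52.4 and 84.7 Mb from it on the same chromosome. Within 15 Mb of Ikbkb, 18 of 144 genes (12.5%), Gsr among the 18, passed between the genotypes with saline, and on the rest of the chromosome 28 of 639 (4.38%). With Ang II the counts were 5 of 144 (3.47%) and 0 of 639. Neither Hmox1, at a log2 difference of -0.12, nor Nqo1, at 0.20, passed with saline. The part of the surroundings of the floxed allele in the level of Gsr was not tested.

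**Figure D4:**
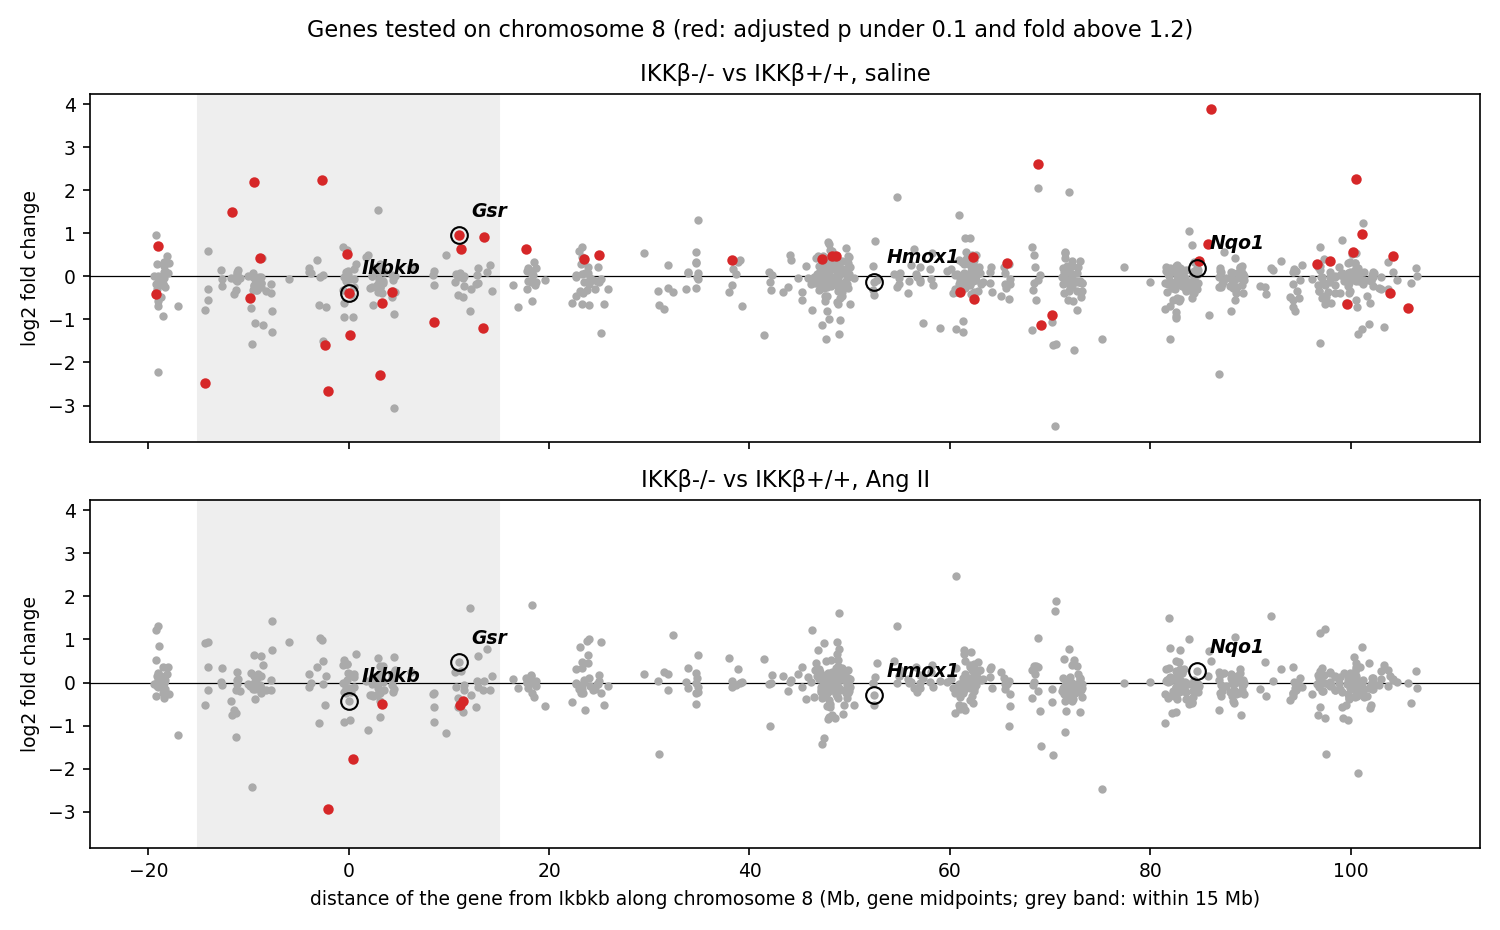
Log2 fold changes between genotypes (vertical axes) of the genes tested on chromosome 8, by distance from Ikbkb in Mb (horizontal axis; the grey band marks 15 Mb to each side), with saline above and Ang II below; red marks genes past the threshold. Gsr, inside the band, stands at 0.95 with saline and 0.47 with Ang II, while Hmox1 (-0.12 and -0.30) and Nqo1 (0.20 and 0.26) lie outside it and did not pass.

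Markers of other cells were also read in the saline groups. Macrophage markers summed to 3518 to 4843 normalized counts in IKKβ-/- and 5206 to 7550 in IKKβ+/+ mice, with 2 of 8 lower past the threshold, and the 6 mitochondrial mRNAs to 1188326 to 7525043 against 739149 to 1155226, with 0 of 6 past it (limma) and 6 of 6 at an unadjusted p under 0.05. White adipocyte (-2.23, 4 of 5), endothelial (-0.78, 3 of 6) and striated muscle markers (1.15, 2 of 4) had none past the threshold with limma, where the brackets give the median log2 difference and how many were at an unadjusted p under 0.05. By the same measures, adventitial fibroblast (-0.49, 2 of 6), smooth muscle (0.29, 2 of 6) and neutrophil and monocyte markers (-0.76, 1 of 5) also had none past it. The part of these markers in the level of Gsr was not tested. For Nfe2l2 with saline, at 1600 to 1906 in IKKβ-/- and 1268 to 1758 in IKKβ+/+ mice, the log2 difference of 0.31 (SE 0.14) did not pass (limma adjusted p = 0.226).

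Between Ang II-treated mice of the 2 genotypes, 0 of the 9 genes passed with limma, against 0.128% of all genes tested. With edgeR 0 of the 9 passed, against 16 of all genes, while DESeq2 passed 2, Gsr and Txnrd1, and 3.51% of all genes. At an unadjusted p under 0.05 there were 3 of 9 with each of the 3 tools. Of all genes tested, 2118 (14.3%) were at that p with limma, 2171 with edgeR and 2332 with DESeq2. Txnrd1 was at 757 to 992 normalized counts in IKKβ-/- and 1021 to 1721 in IKKβ+/+ mice, without overlap, as 0.882% of all genes in this direction. Its log2 difference was -0.47 (SE 0.13, limma adjusted p = 0.174, DESeq2 adjusted p = 0.0391), and without X2356 it passed with limma as well (adjusted p = 0.0740). Leaving out any other mouse did not turn the limma call of Txnrd1. Srxn1 stood at -0.33 (SE 0.14, limma adjusted p = 0.303), with 580 to 743 against 648 to 1244. Nfe2l2, Gclc, Gclm, Prdx1, Nqo1 and Hmox1 lay between -0.30 and 0.26 on the log2 scale and did not pass.

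Slc7a11, which imports cystine for glutathione synthesis, was near the limit of detection in every group. It had 2.0 to 20.1 normalized counts with Ang II and 0.8 to 15.2 with saline in IKKβ+/+ mice, and 2.6 to 11.2 and 0 to 3.9 in IKKβ-/- mice. No change of it was detectable at this depth. With no filter on low values its log2 difference with Ang II in IKKβ-/- mice was 1.47 (SE 0.65, limma adjusted p = 0.279).

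Beyond the 10 genes, 67 of 72 listed genes of the NRF2 pathway were in the table and 66 were tested. In IKKβ+/+ aortas Ang II raised 7 and lowered 6 of them (19.7%, against 8.66% of all genes tested), with a median log2 fold change of 0.02 over the list and 0.01 over all genes. Of all genes tested, 4.33% rose and 4.33% fell past the threshold.

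Among 12 regulators 3 rose. Maff, a small MAF protein, rose by a log2 fold change of 1.27 (SE 0.28, limma adjusted p = 0.0162) and Dpp3, a peptidase that binds KEAP1, by 0.39 (SE 0.11, limma adjusted p = 0.0487). Keap1 (-0.04), Cul3 (0.09), Bach1 (-0.01), a repressor at antioxidant elements, Sqstm1 (-0.05), an autophagy receptor that binds KEAP1, and Mafg (0.37) did not pass. In the glutathione list 3 of 18 genes tested rose and 2 fell. Gpx1, which reduces peroxides, rose from 3214 ± 244 normalized counts (SD, n = 5) to 5038 ± 425 (SD, n = 5), a log2 fold change of 0.65 (SE 0.09, limma adjusted p = 0.00137), and its groups did not overlap. Gsto1 rose by 0.70 and Gss, the glutathione synthetase, by 0.52 on the log2 scale. Of 12 thioredoxin genes 1 passed (8.33%, near the 8.66% of all genes): Txn1, the substrate of Txnrd1, rose by a log2 fold change of 0.52 (SE 0.09, limma adjusted p = 0.00601), without overlap of its groups.

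In the detoxication list 3 of 9 genes tested fell and none rose. Aldh3a1 had a log2 fold change of -1.16 and Adh7 of -1.56, both without overlap. The regulator Mafk (0.50), Ephx1 (-0.50), Gstt1 (-0.66), Gsta4 (-1.14) and the iron exporter Slc40a1 (-1.22) also passed, and are named beyond the rule for naming genes, after their values were seen. No NADPH supply gene of 6 passed with limma, with 1 at an unadjusted p under 0.05 (20.3% of all genes tested). Of the 66 pathway genes, 26 were at that p.

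In IKKβ-/- aortas 4 of the 66 genes passed with Ang II, all lower (6.06%, against 5.29% of all genes tested): Aldh3a1 (-1.12), Ephx1 (-0.66), Txnrd3 (-0.55) and Gsk3b (-0.34), a kinase that promotes the breakdown of NRF2. Gpx1, at a log2 difference of 0.18, and Txn1, at 0.10, did not pass there. Aldh3a1 went from 84.9 ± 18.6 (SD, n = 4) to 40.0 ± 14.9 normalized counts (SD, n = 5), and in IKKβ+/+ mice from 114 ± 20.7 to 51.6 ± 15.5 (SD, n = 5 each). For the difference of the effects and for both comparisons of genotype, 0 of the 66 genes passed with limma, with 8, 11 and 11 at an unadjusted p under 0.05 beside 11.1%, 19.2% with saline and 14.3% with Ang II of all genes tested.

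**Figure D5:**
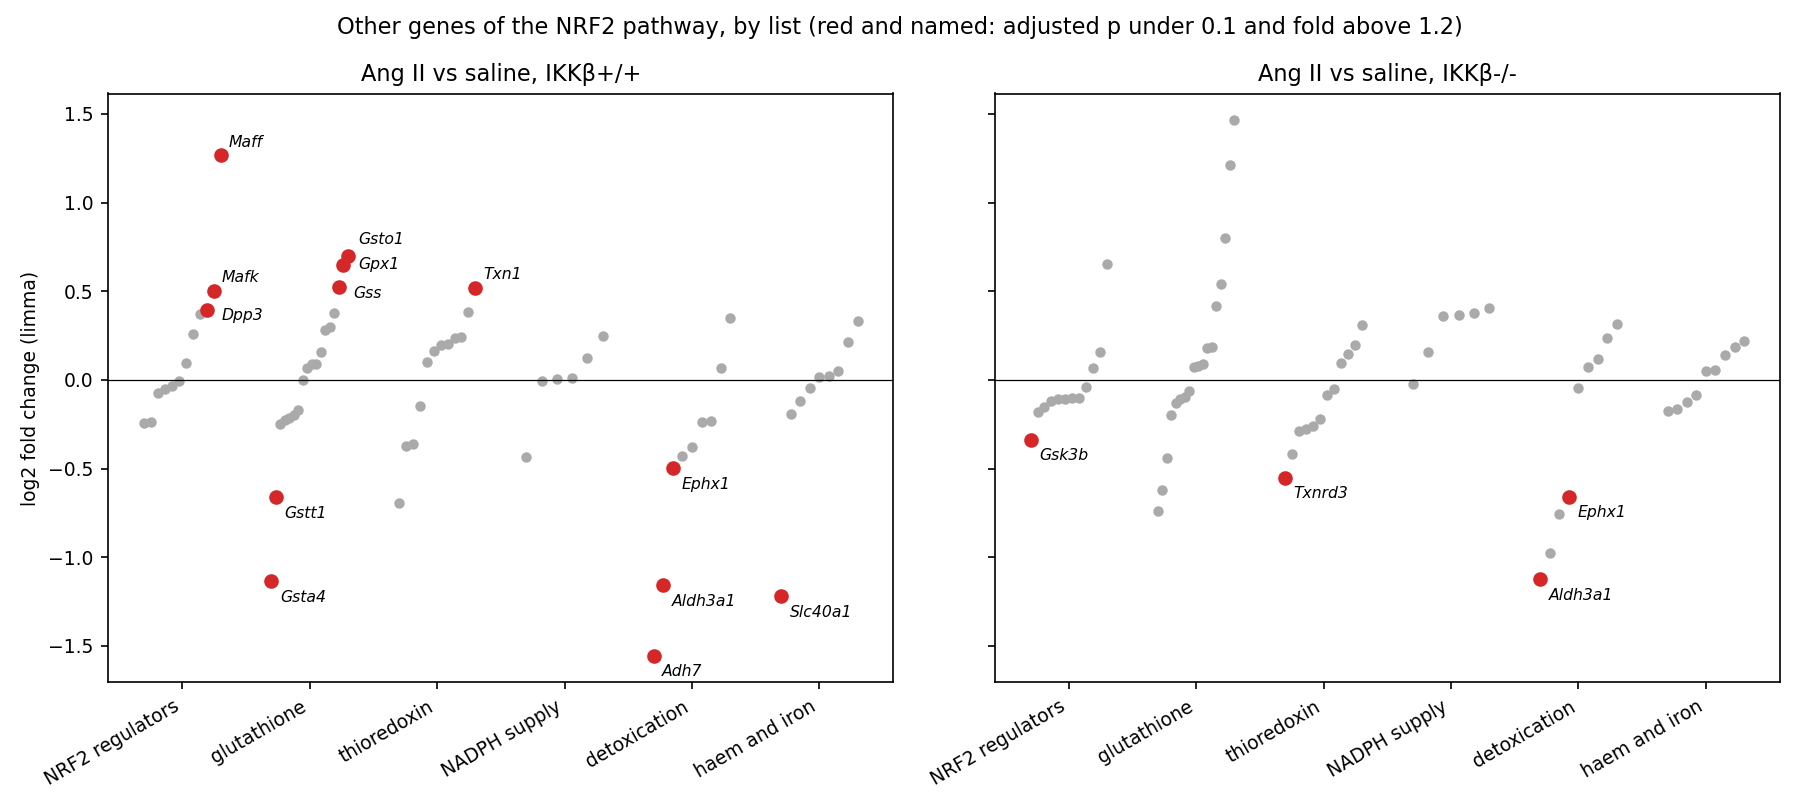
Log2 fold changes with Ang II (vertical axes) of the 66 other NRF2 pathway genes tested, by list (horizontal axes), in IKKβ+/+ (left) and IKKβ-/- mice (right); red and named genes passed the threshold. On the left 7 genes rose, Maff most at 1.27, and 6 fell, Adh7 most at -1.56; on the right 4 fell and none rose past the threshold.

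How the genes varied from mouse to mouse was described over the 19 mice after each group's mean was taken off. Over the 36 pairs of the 9 genes, the median Pearson r of log2 values was 0.24 and 31 pairs were positive. The highest values joined Txnrd1 to Gsr (r = 0.69, Spearman rho = 0.74), Txnrd1 to Srxn1 (r = 0.65, rho = 0.55), Nfe2l2 to Srxn1 (r = 0.64, rho = 0.53) and Gclc to Txnrd1 (r = 0.64, rho = 0.54). Srxn1 and Gsr stood at r = 0.50 (rho = 0.50). The mice behind the rises of Txnrd1, Srxn1 and Gsr with Ang II also enter these r, so the rises and the r are not separate results. The 2 subunits of the same ligase went opposite ways, Gclm and Gclc at r = -0.56 (rho = -0.69). These points share libraries and size factors, and the values are a description.

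Of all genes tested, those whose pattern over the mice was most like that of Txnrd1 were Nploc4 (r = 0.91), Eif2s1 (r = 0.91) and Psmd6 (r = 0.90). For Srxn1 they were Map2k4, Nsun2 and Lrp8 (r = 0.83, 0.83 and 0.82), for Gsr Med14, Mapkapk2 and Nedd9 (r = 0.86 each) and for Nfe2l2 Layn, Ccdc71l and Gfpt2 (r = 0.81, 0.81 and 0.80). For Prdx1 they were Arl1, Uba3 and Vps29 (r = 0.91, 0.90 and 0.89), for Gclm Eif4g2, Vps45 and Pole2 (r = 0.89, 0.86 and 0.81) and for Gclc Greb1, Pex5 and Arl4d (r = 0.77, 0.76 and 0.75). Those of Nqo1 were Itih4, Alcam and Tulp3 (r = 0.88, 0.85 and 0.79) and those of Hmox1 Tmem250-ps, Noc4l and S100a6 (r = 0.81, 0.80 and 0.80). None of these lists held another of the 10 genes.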

How the data were processed

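Bulk RNA-Seq values of the SRA of 19 mice were read from a single table. Per the study's methods, poly(A) libraries were trimmed (Trimmomatic 0.35), aligned to GRCm38 (STAR 2.7.1a) and normalized (DESeq2 1.30.1). The deposited signal is the authors' count per gene divided by a size factor per mouse. Of these values 100% were whole multiples of 1 read within 0.02 read, so that reads were recovered. Depth was 11382573 to 19906694 reads per mouse, which limits the precision of genes with few reads.

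A single limma 3.58.1 fit (R 4.3.3, eBayes with trend) of log2(value + 1) over 4 groups gave 5 comparisons, two-sided, adjusted by Benjamini-Hochberg over 14845 genes. A pseudocount pulls fold changes of low genes toward 0. Genes below the minimum were left out. Samples were grouped by the labels' genotype and treatment. None of the 36 pairs of mice within groups agreed within sampling noise. The fit was tested on simulated data. Alternatives tried were TMM scaling, array weights, a fit of the compared groups, a pseudocount of 4, the unfiltered table, edgeR 4.0.16 and DESeq2 1.42.0 on reads, other thresholds, each mouse left out, and, added after seeing the data, an adipocyte score as a covariate. Named are the 10 genes, Ikbkb, pathway genes past the threshold (at most 8 per comparison by p), 5 regulators, and for each of the 9 genes tested the 3 genes of highest r. The genes and lists were chosen with earlier results of these data known. Promoter letters come from RefSeq.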

Additional observations from a re-analysis of the deposited data

Results flagged for a closer look

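In 4 of the 40 sets of 4 or 5 mice examined, 10 genes in 4 groups, the highest or lowest mouse stood apart from the others by Dixon's gap at the 95% level, which chance gives in about 1 of 20 sets. Nfe2l2 was lowest in the Ang II-treated IKKβ-/- mouse X2380, at 874.3 normalized counts, and without this mouse its fall with Ang II still passed. Nqo1 was highest in the Ang II-treated IKKβ-/- mouse X2383, at 558.0, and without this mouse its log2 difference with Ang II, which did not pass, turned from 0.14 to -0.050. Prdx1 was lowest in the saline-infused IKKβ+/+ mouse X2378, at 2423, and highest in the Ang II-treated IKKβ+/+ mouse X2358, at 3457.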

How the results depend on the processing

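Of the 5 results past the threshold among the 9 genes, the higher Gsr of IKKβ-/- mice with saline kept its call in every alternative and with every mouse left out, the fall of Nfe2l2 lost it only with the adipocyte covariate, and the rises of Txnrd1, Srxn1 and Gsr were lost without single mice. No paired analysis was possible because the groups share no mouse numbers. The count of the 10 genes past the threshold, 3 with Ang II in IKKβ+/+ mice, was 1 (Txnrd1) at an adjusted p under 0.05, 0 at a fold above 1.5, and 0 to 3 with 1 mouse left out. In IKKβ-/- mice it was 0 with the adipocyte covariate instead of 1. Between genotypes with Ang II it was 2 with DESeq2 instead of 0, and 0 to 2 with 1 mouse left out. Over all genes, the count with Ang II in IKKβ+/+ mice was 1286, 2074 with array quality weights, 638 at an adjusted p under 0.05, 752 at a fold above 1.5, and 431 to 1918 with 1 mouse left out. In IKKβ-/- mice it was 785, 295 with only the compared groups in the fit, 15 with the adipocyte covariate, 412 at an adjusted p under 0.05, and 433 to 1082 with 1 mouse left out. For the difference of the effects it was 0, 76 with quality weights, 3 with edgeR, 279 with DESeq2, and 0 to 79 with 1 mouse left out. Between genotypes with saline it was 812, 1420 with only the compared groups, 1902 with quality weights, 1437 with DESeq2, 171 with the adipocyte covariate, 136 at an adjusted p under 0.05, 504 at a fold above 1.5, and 24 to 1727 with 1 mouse left out. Between genotypes with Ang II it was 19, 1 with only the compared groups, 521 with DESeq2, 0 with the adipocyte covariate and 0 at an adjusted p under 0.05, and 0 to 553 with 1 mouse left out. The cause of these moves was not tested. Signs turned only for log2 differences that had not passed: Gclm with Ang II in IKKβ+/+ mice (-0.0015 with TMM, -0.055 to 0.059 with 1 mouse left out), Prdx1 with Ang II in IKKβ-/- mice (0.00098 with quality weights, -0.081 to 0.027), Gclc between genotypes with saline (0.00022 with quality weights, -0.12 to 0.040), Srxn1 likewise (0.068 with quality weights, 0.0012 with DESeq2, -0.078 to 0.061) and Nfe2l2 between genotypes with Ang II (0.0036 with quality weights). With 1 mouse left out, the log2 value ran from -0.034 to 0.052 for Prdx1 with Ang II in IKKβ+/+ mice, from -0.050 to 0.26 for Nqo1 with Ang II in IKKβ-/- mice, and from -0.10 to 0.0087 for Gclm between genotypes with saline. For the difference of the effects it ran from -0.14 to 0.17 for Nqo1, from -0.39 to 0.044 for Hmox1 and from -0.11 to 0.0071 for Prdx1. Depth limits Slc7a11, which had 0 to 21 reads per mouse and was compared only without the filter on low values, while the other 9 genes had 47 reads or more in every mouse.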
